A study of Mus musculus with 12 samples.

Results

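Transcripts of T cells were followed in the epidermis of newborn mice through 9 genes: Cd3d, Cd3e, Cd3g, Cd247, Il2rb, Thy1, Cd7, Trdc and Xcl1. They were picked by gene symbol from a count table of 46078 genes, and all 9 passed the filter on low counts, among 14582 genes tested. The series compared 4 groups of 3 mice, 1 RNA-seq library each, to ask how loss of the Llgl genes changes epidermal transcripts with and without loss of a Trp53 allele. Controls carried K14-Cre only. Llgl cKO mice carried K14-Cre and Llgl1/2 flox/flox, Trp53 het mice K14-Cre and Trp53 +/flox, and Llgl cKO Trp53 het mice K14-Cre with both. The keratin 14 promoter drives Cre in keratinocytes of the basal layer, so every group shared the transgene, and the transcripts followed here belong to a cell type other than the one it targets. Llgl1 and Llgl2 are the mouse homologues of the fly polarity gene lethal giant larvae, and Trp53 encodes the tumour suppressor p53.

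Mouse epidermis holds resident gamma-delta T cells, the dendritic epidermal T cells, which come from the fetal thymus and carry an almost invariant receptor of a Vgamma5 and a Vdelta1 chain. T cell receptors signal through associated chains drawn from CD3 delta, epsilon, gamma and zeta, whose tyrosines are phosphorylated by Lck and then bound by Zap70. These cells need interleukin 15, received through the chain that Il2rb encodes, and they are known for sensing stressed keratinocytes and for releasing growth factors and chemokines at wounds.

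Of the 9 genes, 3 are neighbours on chromosome 9 (GRCm38). Cd3g (44969572 to 44980431, minus strand) and Cd3d (44981786 to 44987339, plus strand) are transcribed away from each other across a gap of 1354 bases, and Cd3e (44998740 to 45009627, minus strand) lies beyond Cd3d, the whole cluster spanning 40056 bases. Their promoter windows from RefSeq (GRCm38.p6, 250 bases before to 50 after the annotated start, 5′ to 3′ on the gene's own strand) are printed because these neighbours encode CD3 chains and varied together over the libraries. Capitals mark matches on either strand to short motifs: the ETS core GGAAG, the RUNX core TGTGGT, the E-box CAGCTG, a further E-box variant CAGGTG, the GATA motif AGATAA, the TCF/LEF motif CTTTGA, and the TATA box TATAAA. The windows are chr9:44980382-44980681 (minus strand, Cd3g), chr9:44981536-44981835 (plus strand, Cd3d) and chr9:45009562-45009861 (minus strand, Cd3e).
Cd3g: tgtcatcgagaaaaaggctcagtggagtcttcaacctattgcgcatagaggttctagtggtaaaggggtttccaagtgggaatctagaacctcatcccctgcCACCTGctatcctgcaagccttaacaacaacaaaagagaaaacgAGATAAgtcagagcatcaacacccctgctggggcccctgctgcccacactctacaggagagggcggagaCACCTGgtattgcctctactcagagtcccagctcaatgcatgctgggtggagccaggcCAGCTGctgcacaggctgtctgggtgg
Cd3d: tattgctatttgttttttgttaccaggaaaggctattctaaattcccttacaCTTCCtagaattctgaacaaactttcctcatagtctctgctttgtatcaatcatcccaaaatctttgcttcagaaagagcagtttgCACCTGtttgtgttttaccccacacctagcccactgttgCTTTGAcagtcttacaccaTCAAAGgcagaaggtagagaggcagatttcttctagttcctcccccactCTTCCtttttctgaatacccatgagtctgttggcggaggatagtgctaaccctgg
Cd3e: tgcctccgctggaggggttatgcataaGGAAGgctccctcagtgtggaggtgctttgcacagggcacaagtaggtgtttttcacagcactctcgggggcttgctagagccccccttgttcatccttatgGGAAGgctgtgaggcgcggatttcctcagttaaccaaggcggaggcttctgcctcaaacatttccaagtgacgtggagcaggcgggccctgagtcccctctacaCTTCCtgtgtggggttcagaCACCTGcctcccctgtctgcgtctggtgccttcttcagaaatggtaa
Windows were matched for 5 of the 9 genes, the other two being Cd247 and Xcl1. CAGGTG was found in 4 of the 5 windows, those of Cd3g, Cd3d, Cd3e and Cd247, and in 20.2% of 32851 mouse promoter windows of the same length. GGAAG was in 4 of the 5, all but Cd3g, and in 71.4% of all windows. CTTTGA was in 2 of the 5, those of Cd3d and Cd247, against 16.0% of all. The Cd3g window alone held CAGCTG (16.3% of all windows) and AGATAA (11.2%), and the Xcl1 window alone held TGTGGT (16.8%). TATAAA was in 0 of the 5, against 13.6% of all. A match describes letters and is not a measured binding site.

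Library totals ran from 6738720 to 14509507 counts. Levels are CPM, the counts of a gene scaled to a common library size by TMM, and a group's level is its mean ± SD (n = 3). Log2 fold changes, standard errors (SE) and p-values come from 1 edgeR quasi-likelihood fit to the 12 libraries, adjusted by Benjamini-Hochberg over all genes tested, and a gene was called at an adjusted p below 0.05. Llgl2 fell from 86.7 ± 22.3 CPM in control to 8.35 ± 1.16 in Llgl cKO and from 90.9 ± 22.0 in Trp53 het to 8.51 ± 3.38 in Llgl cKO Trp53 het, whereas the gene-level count of Llgl1 rose (138 ± 30.6 to 256 ± 33.1 and 133 ± 9.58 to 215 ± 30.5). Counts per gene do not separate the floxed exons, so the loss of Llgl1 could not be checked, and Llgl-deleted is used here as the labels give it. Trp53 was at 61.8 and 60.9 CPM in Trp53 het 1 and 2 but at 115 in the library labelled Trp53 het 3, inside the control range of 109 to 130, so directions drawn from that library go by its label. Control 3 and the library labelled Trp53 het 3 stood apart from their groups in hair, adipocyte and fibroblast transcripts, and counts of calls are also given without them.

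The T cell transcripts were rare. Apart from Thy1, which had 59 to 175 counts per library, no member exceeded 130 counts in a library and the lowest value was 0. Per kilobase of annotated exon, the scale on which genes can be compared, the control level was highest for Thy1 (3.29 ± 0.690 CPM per kb) and Cd3g (2.61 ± 0.403), then Xcl1 (2.21 ± 0.448), Cd7 (1.27 ± 1.16), Il2rb (1.05 ± 0.218) and Cd3d (1.03 ± 0.549). Trdc (0.685 ± 0.242), Cd3e (0.601 ± 0.240) and Cd247 (0.216 ± 0.0584) were lowest. Of the neighbours in this order, Cd3e and Cd247 differed by more than either SD, Thy1 and Cd3g by more than the SD of Cd3g only, and Xcl1 and Cd7 by more than the SD of Xcl1 only. The other neighbours differed by less than the larger SD of each pair.

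The identity of the cells was checked on receptor genes, some of them named after their values were seen. Tcrg-V5 and Trdv4, the gene segments of the Vgamma5 and Vdelta1 chains, were at 1.33 ± 0.625 and 0.771 ± 0.110 CPM in control. Trac, the constant gene of the alpha chain of conventional T cells, had 0 to 2 counts in each of the 12 libraries. Other genes listed as alpha-beta T cell markers had counts. In control Trbc2 was at 10.8 ± 2.60 CPM and Cd5 at 9.29 ± 1.94, both above Tcrg-V5 and Trdv4 on a scale not corrected for length. Cd4 had 33 counts, Trbc1 26 and Cd8a 4 over the 3 control libraries. Trbc2 and Cd5 did not follow the CD3 genes. In Llgl cKO Trp53 het 3 they were at 15.6 and 7.79 CPM, where Cd3e had 2 counts and Cd3g 5. Their levels are therefore not read as a measure of T cells. Other gamma segments, Tcrg-V1, Tcrg-V4 and Tcrg-V6, had 5 or fewer counts each in any group. Tcrg-V5 and Trdv4 thus had more counts than the other variable segments listed.

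In the average of the Llgl comparisons (Llgl cKO against control and Llgl cKO Trp53 het against Trp53 het, which share no library), all 9 log2 fold changes lay below 0, and Il2rb and Cd3g fell. By edgeR 2 of 9 were called, where 3.33% of all genes tested were, and both were lower, where 2.15% were called lower. An unadjusted p below 0.05 was reached by 8 of 9, all but Thy1, where 18.2% of all genes reached it. The median change was -1.89 for the 9 genes and -0.0026 for all genes, of which 50.4% lay below 0. In bulk epidermis, fewer T cells and less RNA per T cell cannot be told apart.

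**Figure D1:**
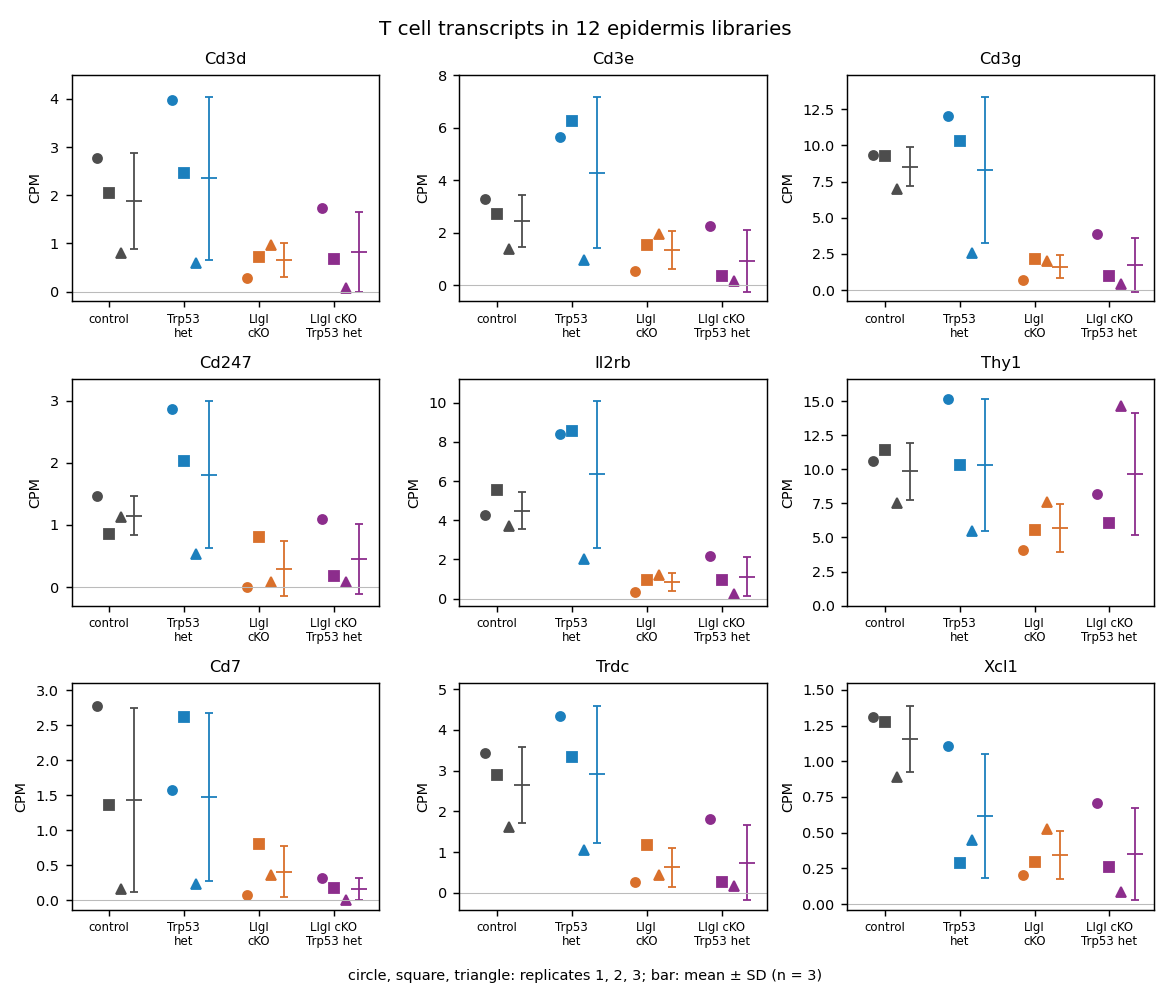
Level of each T cell transcript in CPM (y axis, linear) in the 12 libraries, by group (x axis); symbols are replicates 1, 2 and 3, and bars give the mean ± SD (n = 3). In Trp53 het the library labelled replicate 3 is the lowest for 8 of the 9 genes, and in Llgl cKO Trp53 het replicate 1 is the highest for 8 of 9.

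Cd3g encodes the gamma chain of CD3. Its level was 9.32, 9.27 and 7.01 CPM in control 1 to 3, and 0.687, 2.114 and 2.03 in Llgl cKO 1 to 3. It was 12.0025 and 10.3 in Trp53 het 1 and 2, 2.56 in the library labelled Trp53 het 3, and 3.85, 0.939 and 0.419 in Llgl cKO Trp53 het 1 to 3. Every Llgl cKO library lay below every control, while Llgl cKO Trp53 het 1 lay above the library labelled Trp53 het 3, so those groups overlapped. The average log2 change was -2.32 (SE 0.518, 95% interval -3.45 to -1.18, adjusted p = 0.0352 by edgeR), with 6 of 6 Llgl-deleted libraries below the mean of their matched group.

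Cd3d and Cd3e encode the delta and epsilon chains, and epsilon can pair with delta or with gamma. Cd3e was at 3.27, 2.72 and 1.37 CPM in control and at 0.550, 1.53 and 1.94 in Llgl cKO. It was at 5.63 and 6.25 in Trp53 het 1 and 2, 0.979 in the library labelled Trp53 het 3, and 2.28, 0.342 and 0.167 in Llgl cKO Trp53 het. Both pairs of groups overlapped, since control 3 lay below Llgl cKO 2 and 3. Its average change of -1.50 (SE 0.608, adjusted p = 0.216) was not called. Cd3d ran from 0.806 to 2.78 CPM in control, 0.275 to 0.969 in Llgl cKO, 0.602 to 3.97 in Trp53 het and 0.0837 to 1.73 in Llgl cKO Trp53 het, again with overlap. Its change of -1.46 (SE 0.605, adjusted p = 0.226) was not called.

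Cd247 encodes the zeta chain, which carries most of the signalling tyrosines of the complex. It was at 1.47, 0.850 and 1.13 CPM in control and at 0, 0.802 and 0.0881 in Llgl cKO, where the groups did not overlap but control 2 and Llgl cKO 2 nearly met. It was at 2.86 and 2.03 in Trp53 het 1 and 2, 0.527 in the library labelled Trp53 het 3, and 1.10, 0.171 and 0.0837 in Llgl cKO Trp53 het. Its average change was -1.89 (SE 0.723, adjusted p = 0.189) and was not called. The annotation places Pou2f1 on the opposite strand over part of Cd247, and the strand setting of the counting is not given in the sources used here, so reads of the pair may not be separated. The same holds for Cd3e, Cd7, Trdc and Xcl1, each of which has an annotated non-coding gene on the opposite strand over part of it.

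Trdc is the constant gene of the delta chain and so the most direct marker of gamma-delta T cells among the 9. It was at 3.43, 2.89 and 1.61 CPM in control and 0.275, 1.17 and 0.440 in Llgl cKO, with no overlap. It was at 4.34 and 3.34 in Trp53 het 1 and 2, 1.05 in the library labelled Trp53 het 3, and 1.81, 0.256 and 0.167 in Llgl cKO Trp53 het. Mean Trdc in Llgl cKO was 23.7% of control, and in Llgl cKO Trp53 het 25.5% of Trp53 het. The average change of -1.97 (SE 0.572, 95% interval -3.22 to -0.72) missed the threshold by edgeR (adjusted p = 0.0913) and passed it by DESeq2 (0.0155) and in edgeR with the replicate number as a block (0.0401), without Llgl cKO Trp53 het 1 (0.0232) or without the library labelled Trp53 het 3 (0.0433). It missed the threshold on leaving out each of the other 10 libraries, and over all 12 such fits the adjusted p ran from 0.0232 to 0.209 and the log2 change from -2.86 to -1.74. The annotation also places Trdv5, at 0 counts in every group, and the antisense gene Gm43434 on the opposite strand over part of Trdc.

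Il2rb encodes the beta chain shared by the receptors of interleukin 2 and interleukin 15. It was at 4.25, 5.53 and 3.71 CPM in control and 0.344, 0.948 and 1.23 in Llgl cKO, with no overlap. It was at 8.40 and 8.58 in Trp53 het 1 and 2, 2.03 in the library labelled Trp53 het 3, and 2.20, 0.939 and 0.251 in Llgl cKO Trp53 het, where replicate 1 again lay above that Trp53 het library. The average change of -2.44 was the largest of the 9 (SE 0.492, 95% interval -3.52 to -1.36, adjusted p = 0.0228 by edgeR), with 6 of 6 Llgl-deleted libraries below the matched mean. Mean Il2rb stood at 18.7% of control in Llgl cKO and at 17.8% of Trp53 het in Llgl cKO Trp53 het. Il15ra, the private chain that presents interleukin 15, averaged 15.1 ± 1.37 CPM in control against 13.4 ± 3.56 in Llgl cKO, with an average change of -0.16 that was not called.

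Cd7 and Thy1 encode small immunoglobulin-superfamily proteins of the T cell surface. Cd7 was at 2.78, 1.36 and 0.161 CPM in control, 0.0687, 0.802 and 0.352 in Llgl cKO, 1.57 and 2.62 in Trp53 het 1 and 2, 0.226 in the library labelled Trp53 het 3, and 0.314, 0.171 and 0 in Llgl cKO Trp53 het. Control 3 and the library labelled Trp53 het 3 fell among the Llgl-deleted libraries, and the average change of -2.34 (SE 0.816, adjusted p = 0.151) was not called by edgeR (0.0498 by DESeq2).

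Thy1 followed another pattern. It was at 10.6, 11.4 and 7.50 CPM in control and 4.05, 5.54 and 7.57 in Llgl cKO. It was at 15.1 and 10.3 in Trp53 het 1 and 2, 5.50 in the library labelled Trp53 het 3, and 8.16, 6.06 and 14.7 in Llgl cKO Trp53 het. Its highest value in that last group was in replicate 3, the library with the lowest level of the other 8 genes within the group. The average change was -0.44 (95% interval -1.07 to 0.19, adjusted p = 0.462), and between Llgl cKO Trp53 het and Trp53 het it was -0.10, turning to 0.01 when Llgl cKO Trp53 het 1 was left out, 0.14 when Llgl cKO Trp53 het 2 was, and 0.30 when Trp53 het 1 was. Thy1 is also made by fibroblasts and neurons. The 12 fibroblast markers summed to 628 CPM in Llgl cKO Trp53 het 3, the highest of the 12 libraries, and their part in the Thy1 level was not tested.

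Xcl1, or lymphotactin, is a chemokine of activated T and natural killer cells that attracts dendritic cells bearing Xcr1. It was at 1.31, 1.28 and 0.887 CPM in control and 0.206, 0.292 and 0.528 in Llgl cKO, with no overlap. It was at 1.11 and 0.291 in Trp53 het 1 and 2, 0.452 in the library labelled Trp53 het 3, and 0.706, 0.256 and 0.0837 in Llgl cKO Trp53 het, which overlapped. The average change was -1.29 (SE 0.474, adjusted p = 0.173) and was not called.

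Both calls lay near the threshold. Leaving out each library in turn gave 0 to 3 called members. Il2rb lost its call without control 2, Llgl cKO 1, Llgl cKO Trp53 het 2, Trp53 het 1 or Trp53 het 2 (adjusted p up to 0.0683, log2 changes from -2.90 to -2.21 over the 12 fits). Cd3g lost its call without any of these, and without Llgl cKO 2 or 3, Llgl cKO Trp53 het 3 or control 1 as well (adjusted p up to 0.0923, log2 changes from -2.99 to -2.09). It also lost the call with no filter on low counts (0.0855). Without control 3 and the library labelled Trp53 het 3, a choice made after seeing the data, 6 of 9 were called, with Cd3d, Cd3e, Cd7 and Trdc added, where 2334 of 14761 genes were called in all. Each of these libraries held the lowest level in its group for 8 of the 9 genes, so leaving them out widens the difference. DESeq2 called 4 of 9, adding Cd7 and Trdc, and 1034 of 14571 genes in all.

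**Figure D2:**
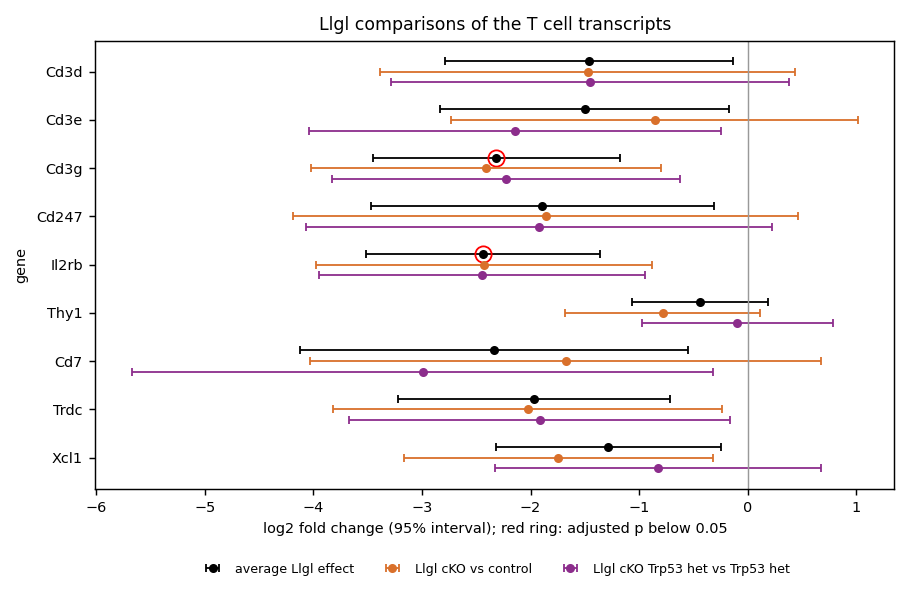
Log2 fold change (x axis) with its 95% interval for each T cell transcript (y axis) in the average Llgl effect and in the comparisons it averages; red rings mark an adjusted p below 0.05. Every point lies below 0, and the ringed ones are Cd3g (-2.32) and Il2rb (-2.44) in the average.

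In each Llgl comparison alone no member was called by edgeR. The changes of Cd3d, Cd3g, Cd247, Il2rb and Trdc differed by 0.18 or less between those comparisons, whereas Cd3e was at -0.85 in Llgl cKO against control and -2.14 in Llgl cKO Trp53 het against Trp53 het, Cd7 at -1.68 and -2.99, Xcl1 at -1.74 and -0.83, and Thy1 at -0.78 and -0.10. In Llgl cKO against control they ran from -2.43 (Il2rb) to -0.78 (Thy1), with a median of -1.74 and 9 of 9 below 0 (51.2% of all genes). There 0 of 9 were called (0.226% of all genes), 4 of 9 had an unadjusted p below 0.05 (6.31% of all genes), and DESeq2 called 0. All Llgl cKO libraries lay below all controls for 5 of 9, namely Cd3g, Cd247, Il2rb, Trdc and Xcl1, where 5.31% of all genes did.

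In Llgl cKO Trp53 het against Trp53 het the changes ran from -2.99 (Cd7) to -0.10 (Thy1), with a median of -1.92 and 9 of 9 below 0 (49.8% of all genes). By edgeR 0 of 9 were called (1.36% of all genes), 5 of 9 had an unadjusted p below 0.05 (15.4%), and DESeq2 called 2 (722 of 14571 genes in all). Without the library labelled Trp53 het 3 edgeR called Il2rb (adjusted p = 0.0373), where it called 322 of 14851 genes in all, and without it and control 3 it called 3 members, where it called 1088 of 14761 genes. No member had all Llgl cKO Trp53 het libraries below all Trp53 het libraries, 0 of 9, where 10.7% of all genes did. Against control, whose libraries also serve the comparison with Llgl cKO, Llgl cKO Trp53 het gave 0 of 9 calls by edgeR (1.25% of all genes). There 5 of 9 had an unadjusted p below 0.05 (13.9%), and DESeq2 called 1 (644 of 14571 genes in all). Cd3g, Il2rb and Xcl1, 3 of 9, lay below control in every library there, where 9.2% of all genes did. No member, 0 of 9, had its 6 Llgl-deleted libraries all below the other 6, where 1.21% of all genes did.

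Loss of a Trp53 allele gave no called change in these transcripts. In Trp53 het against control the 9 changes ran from -0.83 (Xcl1) to 0.80 (Cd3e), with a median of 0.14. By edgeR 0 of 9 were called (0% of all genes), 0 had an unadjusted p below 0.05 (0.432%), and DESeq2 called 0. In Llgl cKO Trp53 het against Llgl cKO they ran from -1.25 (Cd7) to 0.75 (Thy1), with 0 of 9 called (0% of all genes), 0 at an unadjusted p below 0.05 (5.12%) and 0 by DESeq2. The 95% intervals of the average Trp53 change were -1.07 to 1.15 for Cd3g, -0.60 to 1.53 for Il2rb and -0.22 to 1.04 for Thy1, wide enough to hold a change of 1 log2 unit upwards. In that average edgeR called 0 of 9 (0% of all genes), 0 at an unadjusted p below 0.05 (2.17%), and DESeq2 called 0.

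Whether the Llgl difference itself differed between the Trp53 genotypes was tested as an interaction. The difference was 0.18 for Cd3g (95% interval -2.04 to 2.41), -0.02 for Il2rb (-2.99 to 2.95), 0.11 for Trdc (-2.34 to 2.57) and 0.69 for Thy1 (-0.57 to 1.94). By edgeR 0 of 9 were called (0% of all genes), 0 had an unadjusted p below 0.05 (2.94%), and DESeq2 called 0. These intervals leave the size of any such difference poorly fixed.

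The members moved together from library to library, as a description over 12 libraries in which the genes of a library share its depth and scaling. Correlated with the mean of the other 8 on the log2 scale, Cd3g (r = 0.971), Trdc (0.966), Il2rb (0.947), Cd3d (0.938) and Cd3e (0.912) were closest, and Cd247 (0.896), Cd7 (0.850), Xcl1 (0.751) and Thy1 (0.460) followed. With group means removed the values were 0.957 for Cd3g, 0.923 for Trdc and 0.358 for Thy1. Replicates within a group thus ranked alike for most of the genes. Llgl cKO 1 was the lowest of its group for 9 of 9 and Llgl cKO Trp53 het 3 for 8 of 9.

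Outside the set, 13590 genes were ranked by how alike their pattern over the 12 libraries was to the mean of the 9, and the first 9 of the 10 most alike were Nkg7 (r = 0.974), Tcrg-C1 (0.957), Car6 (0.957), Itgae (0.957), Cd163l1 (0.953), Ctla2a (0.950), Hsph1 (0.948), Ctsw (0.948) and Bco1 (0.934). Nkg7 is a protein of cytotoxic granules, Ctsw a protease of cytotoxic lymphocytes, and Itgae the integrin chain that binds E-cadherin on keratinocytes. With group means removed the 9 correlations ran from 0.882 to 0.948. The ranking used all 12 libraries, so the direction of these genes in the Llgl comparisons was fixed by the choice and their values are a description. Of these, Tcrg-C1, Car6 and Hsph1 passed the threshold in the average Llgl effect. Car6, a secreted carbonic anhydrase, went from 50.8 ± 24.4 CPM in control to 19.3 ± 6.05 in Llgl cKO (average change -1.57, adjusted p = 0.0271), and Hsph1, a heat shock protein, from 54.5 ± 17.9 to 31.2 ± 5.80 (-0.88, adjusted p = 0.0295). Both lost the call without control 1 or 2, Llgl cKO 1 or 3, Llgl cKO Trp53 het 2 or 3, or Trp53 het 1 or 2 (adjusted p up to 0.0787 for Car6 and 0.0859 for Hsph1), with log2 changes from -1.76 to -1.39 for Car6 and from -0.99 to -0.75 for Hsph1 over the 12 fits. Itgae went from 6.77 ± 0.790 to 2.83 ± 1.57 (-1.44, adjusted p = 0.0560) and was not called.

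Related T cell genes were followed in 5 lists, of which 111 genes were in the table and 63 were tested. In the average Llgl effect 5 of 63 fell, where 2.15% of all genes were called lower, and 0 rose. Of the 63, 46 lay below 0, where 50.4% of all genes did, and the median was -0.32. DESeq2 called 12, where it called 1034 of 14571 genes in all. Without control 3 and the library labelled Trp53 het 3 edgeR called 21, where it called 2334 of 14761 genes in all. Among receptor genes 1 of 6 tested fell, with a list median of -1.43. It was Tcrg-C1, a gamma-chain constant gene, which averaged 3.49 ± 1.01 CPM in control against 0.609 ± 0.348 in Llgl cKO, and 3.92 ± 2.54 in Trp53 het mice against 0.716 ± 0.876 in Llgl cKO Trp53 het (-2.44, SE 0.562, adjusted p = 0.0386). Tcrg-C1 has near-identical copies, among which the counting may have split reads.

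Tcrg-V5 had a change of -1.69 that was not called (adjusted p = 0.153), and Trdv4 did not pass the filter on low counts. Tcrg-V5 averaged 0.338 ± 0.174 CPM in Llgl cKO, and 0.427 ± 0.446 with Trp53 het added, against 1.24 ± 0.880 in Trp53 het. Trdv4 averaged 0.127 ± 0.150 and 0.214 ± 0.238 in those Llgl-deleted groups, against 0.729 ± 0.655 in Trp53 het. Trbc2, a beta-chain constant gene, did not share this pattern, with 10.8 ± 2.60 CPM in control against 8.35 ± 1.56 in Llgl cKO, and 10.6 ± 3.07 in Trp53 het mice against 14.7 ± 4.91 in Llgl cKO Trp53 het (0.06, adjusted p = 0.924). Its near copy Trbc1 reached 8.80 CPM in Llgl cKO Trp53 het 2 and at most 1.38 in the others, and was named after its values were seen.

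**Figure D3:**
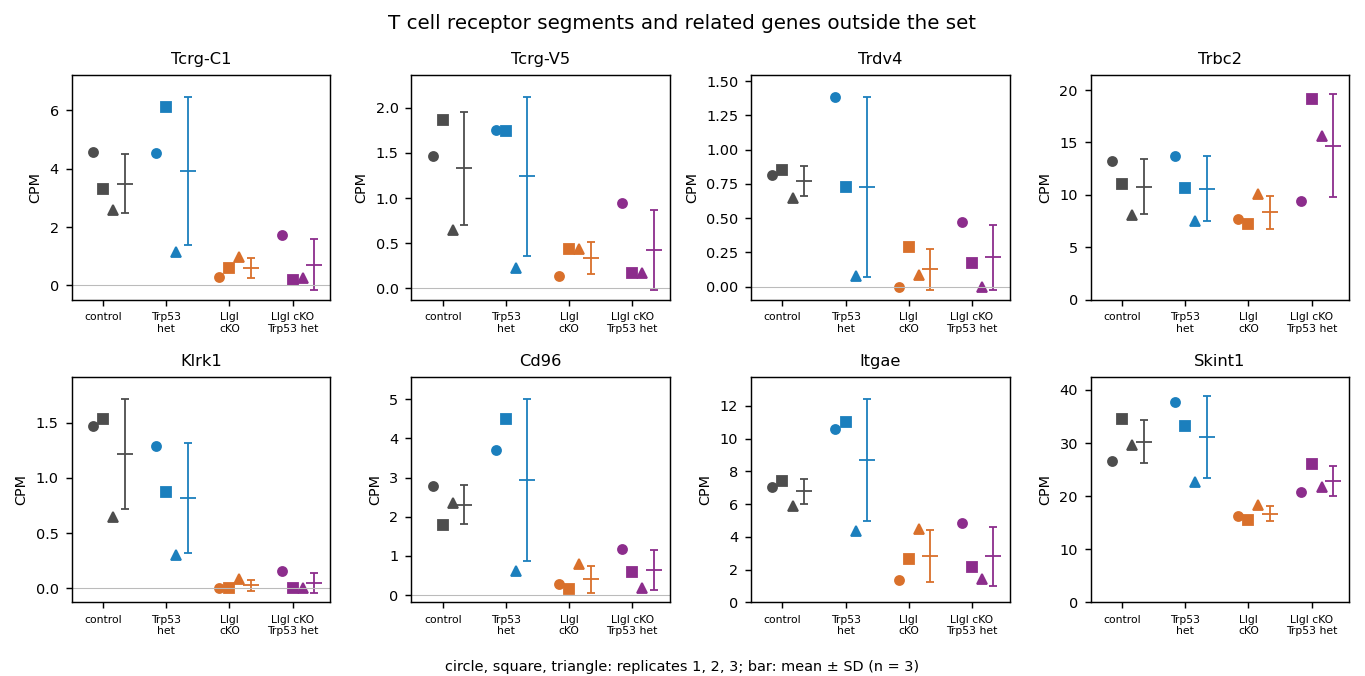
Level in CPM (y axis, linear) of 8 genes outside the set in the 12 libraries, by group (x axis); symbols are replicates, bars the mean ± SD (n = 3). Tcrg-C1, Klrk1, Cd96 and Itgae have lower means in both Llgl-deleted groups than in the matched groups. For Tcrg-C1, Cd96 and Itgae the Trp53 het and Llgl cKO Trp53 het libraries overlap. Trbc2 is highest in Llgl cKO Trp53 het 2, and Skint1 keeps a mean of 16.7 CPM or more in every group.

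Of the signalling genes, 2 of 19 tested fell and 18 lay below 0, with a median of -0.73. Of all genes 2.15% were called lower and 50.4% lay below 0. Sh2d2a, an adaptor that binds Lck, averaged 1.08 ± 0.624 CPM in control against 0.0766 ± 0.0102 in Llgl cKO (-2.91, adjusted p = 0.0413), the latter from 3 counts in all. Cd96, a receptor for nectin-family ligands, went from 2.30 ± 0.498 to 0.404 ± 0.342 (-2.31, adjusted p = 0.0474). Between Trp53 het and Llgl cKO Trp53 het the libraries overlapped for both genes. Sh2d2a was at 0.963 ± 0.636 and 0.185 ± 0.251 CPM there, and Cd96 at 2.93 ± 2.06 and 0.647 ± 0.507. Fyn and Cd5, the most abundant of the list, were at -0.23 and 0.02 and were not called. Among cytokines and effectors 0 of 5 tested were called by edgeR (median -0.40), and among cytokine and homing receptors 0 of 12 (median -0.14). Of all genes 3.33% were called.

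Of the receptors and regulators of epidermal gamma-delta T cells, 2 of 21 tested fell, where 2.15% of all genes were called lower, with a list median of 0.02. Klrk1 encodes NKG2D, the receptor for stress ligands on keratinocytes. It was at 1.47, 1.53 and 0.645 CPM in control and 0, 0 and 0.0881 in Llgl cKO, from 35 and 1 counts, a ratio of 45.8 with a counting interval of 7.698 to 1860. Between Trp53 het and Llgl cKO Trp53 het the counts were 24 and 2, a ratio of 14.09 (3.498 to 123.0). These are exact binomial 95% intervals and cover counting error only. Klrk1 was called in the average and in every alternative run for it, with an adjusted p of at most 0.0401. Klrb1b, an inhibitory lectin-like receptor, had an average change of -1.17 (adjusted p = 0.0489). It went from 2.29 ± 0.533 CPM in control to 0.653 ± 0.274 in Llgl cKO. In Trp53 het it was at 2.04 ± 0.672 against 1.38 ± 0.482 in Llgl cKO Trp53 het, and those groups overlapped. Its interaction of 1.27 (95% interval 0.02 to 2.52) was not called. Gata3 and Bcl11b, the most abundant of the list and also made by keratinocytes, were at 0.17 and 0.22 and were not called.

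The other calls in these lists were lost on leaving out single libraries. Tcrg-C1, Sh2d2a, Cd96 and Klrb1b each lost the call without control 1 or 2, without Llgl cKO 1 or 2, without replicate 2 or 3 of Llgl cKO Trp53 het, and without Trp53 het 1 or 2, and in each of these fits 1 related gene was called. Tcrg-C1 and Sh2d2a also lost it without Llgl cKO 3 (adjusted p = 0.0557 and 0.0770), Cd96 without control 3 (0.0557) and Klrb1b without Llgl cKO Trp53 het 1 (0.0852). The highest adjusted p on leaving out a library was 0.107 for Tcrg-C1, 0.113 for Sh2d2a, 0.129 for Cd96 and 0.140 for Klrb1b. Over the same fits the log2 change ran from -3.31 to -2.22 for Tcrg-C1, from -3.86 to -2.59 for Sh2d2a, from -2.74 to -2.09 for Cd96 and from -1.36 to -1.05 for Klrb1b. Related genes called numbered 8 when Llgl cKO Trp53 het 1 was left out, where 455 of 14860 genes were called in all. They numbered 10 when the library labelled Trp53 het 3 was left out, where 697 of 14851 genes were called.

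Among keratinocyte ligands and niche factors for these cells 1 of 12 tested fell, where 2.15% of all genes were called lower. Skint1, which the fetal thymus needs to select Vgamma5 cells, averaged 30.3 ± 4.02 CPM in control against 16.7 ± 1.44 in Llgl cKO, and 31.2 ± 7.70 in Trp53 het mice against 22.9 ± 2.79 in Llgl cKO Trp53 het (-0.65, adjusted p = 0.0226). It lost the call without control 2, Llgl cKO 1, Llgl cKO Trp53 het 3, Trp53 het 1 or Trp53 het 2 (up to 0.0697). Its relatives Skint3, Skint4 and Skint9 had at most 1 count in any Llgl-deleted library, against 15.2 CPM or more in every other library. Reads may be shared between the near-identical copies of this family. Cdh1, the E-cadherin that Itgae binds, was at 0.34 and was not called.

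Other cell types were read on their own lists beside these results. Summed over all 9 members, control ran from 24.2 to 39.2 CPM and Llgl cKO from 6.46 to 15.1, while Trp53 het ran from 13.9 to 55.0 and Llgl cKO Trp53 het from 9.82 to 22.1. Summed over the 8 members without Thy1, control ran from 16.7 to 28.6 CPM and Llgl cKO from 2.40 to 8.38, while Trp53 het ran from 8.43 to 39.9 and Llgl cKO Trp53 het from 1.26 to 14.0. Langerhans cell and macrophage markers gave 0 of 17 calls by edgeR (median -0.10) and summed to 247 to 281 CPM in control, 215 to 258 in Llgl cKO, 242 to 280 in Trp53 het and 203 to 404 in Llgl cKO Trp53 het. Pan-leukocyte genes gave 0 of 14 calls (median 0.09), with sums of 127 to 144, 96.4 to 141, 121 to 134 and 141 to 175 CPM in the same order. Alpha-beta T cell markers gave 0 of 4, B cell markers 0 of 3, and mast cell and granulocyte markers 0 of 4. Of all genes 3.33% were called, so lists as short as those in this paragraph can give 0 calls without setting their cells apart from other genes. Of the 11 natural killer and innate lymphoid markers only Gata3 and Rora passed the filter, at 165 ± 34.0 and 268 ± 42.2 CPM in control; neither was called, and since keratinocytes also make Gata3, these values do not read natural killer cells. At 0 in every library were Klra1, Klra4 and Klra7 of natural killer cells and Fcer1a and Ly6g of mast cells and neutrophils.

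**Figure D4:**
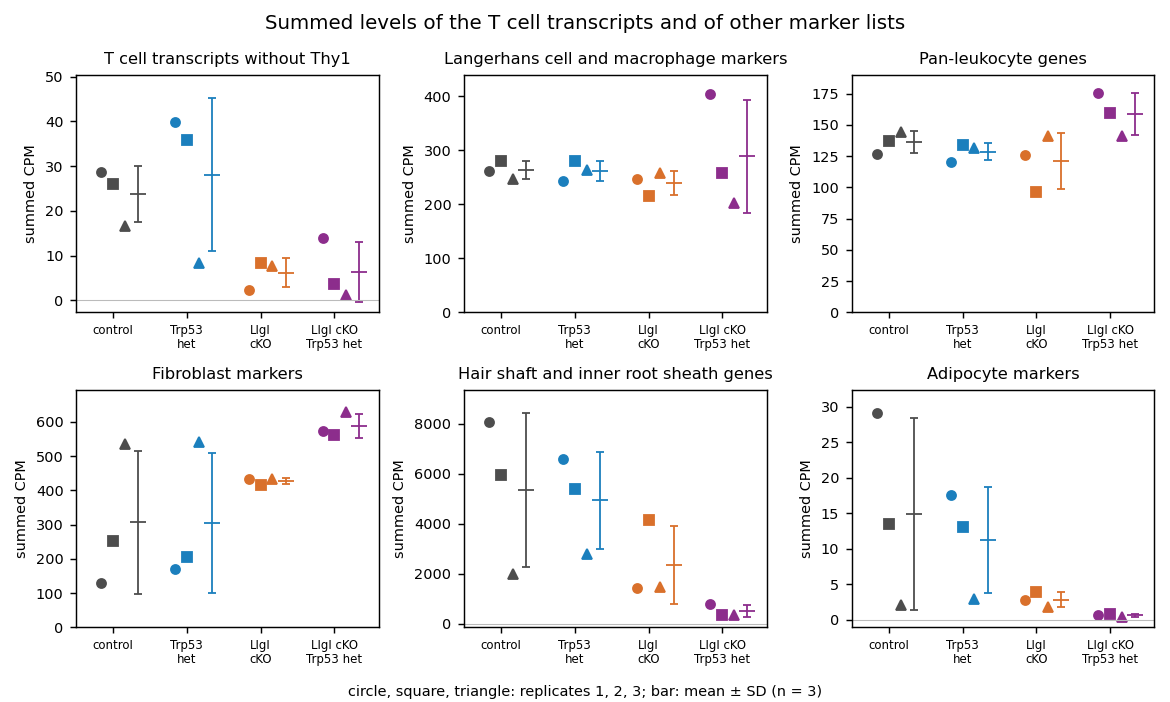
Summed level in CPM (y axis, linear) of the 8 T cell transcripts without Thy1 and of 5 other marker lists in the 12 libraries, by group (x axis); symbols are replicates, bars the mean ± SD (n = 3). The T cell sum is at most 14.0 CPM in the Llgl-deleted groups and 8.43 in the library labelled Trp53 het 3. It overlaps between Trp53 het and Llgl cKO Trp53 het but not between control and Llgl cKO. Langerhans cell and macrophage sums overlap in both comparisons.

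Skin appendage and dermal transcripts moved with the same libraries. Of the genes of the hair shaft and its inner sheath 16 of 25 tested fell (median -2.70), where 2.15% of all genes were called lower. Their sums were 2001 to 8063 CPM in control, 1433 to 4164 in Llgl cKO, 2792 to 6604 in Trp53 het and 359 to 785 in Llgl cKO Trp53 het. Both adipocyte markers tested, Fabp4 and Retn, fell, 2 of 2. The 7 markers summed to 2.10 to 29.1 CPM in control and 1.76 to 3.86 in Llgl cKO. Their sums were 2.94 to 17.5 in Trp53 het and 0.335 to 0.854 in Llgl cKO Trp53 het. Fibroblast markers gave 0 of 8 calls (3.33% of all genes were called). They summed to 130 to 537 CPM in control, 416 to 433 in Llgl cKO, 170 to 540 in Trp53 het and 563 to 628 in Llgl cKO Trp53 het. The lowest hair sum and the highest fibroblast sum of control and of Trp53 het were in replicate 3, the libraries that were also lowest for 8 of the 9 T cell transcripts. The part of these transcripts in the T cell result was not tested.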

How the data were processed

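RNA-seq libraries of newborn mouse epidermis were made with a stranded poly-A kit, per the labels' protocols. The deposited table holds raw counts per gene, which the authors made with STAR and featureCounts 1.6.4 on GRCm38, per the submitters' processing notes; the strand setting is not given in the sources used here. Counts were fitted with edgeR 4.0.16 (R 4.3.3; limma 3.58.1), using filterByExpr with a minimum count of 10, TMM scaling and the quasi-likelihood test on 4 group means. DESeq2 1.42.0, other scalings and filters, a replicate block and leaving out each library were alternatives. Scripts were tested on simulated data. Positions and exon lengths are from GENCODE on GRCm38, and promoters from RefSeq.

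The members and gene lists were chosen with earlier results of these data known. Named genes are the members, the targeted genes, from each list up to 4 called genes and the 2 with the highest mean CPM, the 10 most alike (1 of them is not reported here), and Skint3, Skint4 and Skint9. Marker genes reported at 0 or by counts alone, other receptor segments and Trbc1 were named after their values were seen. Nothing in the sources links same-numbered libraries. Their deviations from group means correlated at 0.619, 0.207 and 0.824 between control and Trp53 het. The values reported for that comparison come from the fit without pairs. The alternative fit with the replicate number as a block also gave 0 member calls there. The p-values set each difference against the spread between mice within groups of 3, estimated in 1 fit over the 12 libraries.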

Additional observations from a re-analysis of the deposited data

How the results depend on the processing

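The count of members called in the average Llgl effect was 2, and 4 by DESeq2, 1 without the low-count filter, 6 without control 3 and the library labelled Trp53 het 3 (chosen after seeing the data), and 0 to 3 on leaving out each library. For related T cell genes it was 5, and 12, 3, 21 and 1 to 10 under the same alternatives. In Llgl cKO Trp53 het against Trp53 het it was 0, and 2 by DESeq2, 3 without both libraries and 0 to 1 on leaving out each. For Llgl cKO Trp53 het against control it was 0 (182 of 14582 genes in all), 1 by DESeq2 (644 of 14571) and 2 without both libraries (1139 of 14761). Thy1 between Llgl cKO Trp53 het and Trp53 het was -0.10, ran from -0.53 to 0.30 on leaving out each library, and turned to 0.01, 0.14 and 0.30 without Llgl cKO Trp53 het 1, Llgl cKO Trp53 het 2 and Trp53 het 1. The cause was not tested. Over all genes 485 were called in the average Llgl effect, 1034 by DESeq2, 2334 without both libraries and 164 to 697 on leaving out each.

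With the replicate block 3 members were called in the average Llgl effect (Trdc added), where 664 of 14582 genes were called in all. Related genes called were then 6, Klrb1b being lost (adjusted p = 0.0661 by edgeR). The block changed no other count of member calls. Same-numbered deviations correlated at 0.117, 0.069 and 0.129 between control and Llgl cKO. Each was higher than that of the same control library with the other Llgl cKO libraries. Between Trp53 het and Llgl cKO Trp53 het they correlated at -0.098, 0.156 and 0.167, the highest with their own number for replicates 2 and 3 only. These small correlations do not settle whether the libraries are pairs. A fit to only the groups compared has no separate form for the averages and the interaction, which use all libraries. Low counts limit the members: Cd247, Cd7 and Xcl1 each had 38 or fewer counts summed over a group, except Cd247 in Trp53 het (52). Other members were also low in Llgl cKO and Llgl cKO Trp53 het, with 25 and 31 counts for Cd3d, 25 and 28 for Trdc, and 51 and 35 for Cd3e. The called Il2rb had 32 and 42 there, and the called Cd3g 62 and 65.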
